A study of Homo sapiens with 6 samples.

Results

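The transcripts described here are the long noncoding RNAs from which small RNAs are cut, chosen as every gene symbol of the array that names a microRNA host gene (MIR followed by HG) or a snoRNA host gene (SNHG with a number). The choice used names only and gave 39 genes of 81496 symbols, namely 36 microRNA hosts and 3 snoRNA hosts (SNHG10, SNHG19 and SNHG23). MCF10.AT1, an HRAS-transformed premalignant derivative of the human breast epithelial line MCF10A that is sensitive to the statin fluvastatin, was compared with MCF10.AT1-R, a fluvastatin-resistant line selected from it by rising doses of the drug (1, 5 and up to 20 µM). Fluvastatin blocks HMG-CoA reductase, the rate-limiting enzyme of the mevalonate pathway. Total RNA of 3 samples per line, labelled as replicates and called biological replicates in the paper, was measured on Clariom D arrays. Both lines carry the same HRAS transformation. Whether MCF10.AT1-R is a single clone and whether drug was present at harvest are not given in the sources used here. The study left out 1 array, A03, as an outlier, and A03 is read here as MCF10.AT1. The comparison therefore rests on 2 MCF10.AT1 arrays (A01 and A02) and 3 MCF10.AT1-R arrays (B02, B03 and B04). On A03 the mean log2 value of the 7 breast epithelial markers described later was 3.89, against 7.36 on A01 and 7.26 on A02. Nothing beyond the name biological replicates says that these were separate cultures, so p-values rest on a spread between arrays that may be technical. This spread is a single variance estimated over all tested probe sets, not the spread of each gene.

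A microRNA host is transcribed as a long precursor, from which the Drosha complex cuts a hairpin that Dicer trims to the mature microRNA, and the mature strand recognises its messages mainly through its seed. A snoRNA host is spliced, and snoRNAs that guide the chemical modification of ribosomal RNA are trimmed out of its introns, while the spliced remainder is often destroyed by nonsense-mediated decay. The level of a host can therefore differ from the level of the small RNA it encodes, and the arrays do not separate a precursor hairpin from the mature strand. In breast epithelium miR-205 is known as a microRNA of basal cells that restrains the mesenchymal regulators ZEB1 and ZEB2, and miR-221 and miR-222 are known for repressing the cell cycle inhibitor CDKN1B.

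Mature microRNAs of the hosts on which the results turn are printed from the RefSeq annotation of build GRCh38.p14, 5′ to 3′, with the seed (bases 2 to 8) in capitals. For miR-221 only the 3p strand is printed. Those of MIR205HG lie on the plus strand at chr1:209432166-209432187 and chr1:209432203-209432223, and those of MIR222HG on the minus strand at chrX:45746180-45746202 for miR-221-3p, chrX:45747036-45747056 for miR-222-3p and chrX:45747073-45747094 for miR-222-5p.
hsa-miR-205-5p: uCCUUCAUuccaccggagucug
hsa-miR-205-3p: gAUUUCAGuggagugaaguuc
hsa-miR-221-3p: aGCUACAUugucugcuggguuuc
hsa-miR-222-3p: aGCUACAUcuggcuacugggu
hsa-miR-222-5p: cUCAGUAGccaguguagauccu
The 3p strands of miR-221 and miR-222 share the seed GCUACAU, whereas both strands of miR-205 have seeds of their own.

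Most host transcripts gave no signal above the background of the array. The deposited values are log2 RMA values, and a gene was taken as above background when its mean over the 5 arrays exceeded the 95th percentile of the negative control probe sets, a log2 value of 2.99. Of the 39 hosts, 12 (30.8%) were above this level, beside 34.8% of all symbols, and 27 lay within the negative controls. Those above it were MIR205HG, MIR222HG, MIR4435-2HG, MIR503HG, MIR1-1HG, MIR3663HG, MIR210HG, MIR3945HG, MIR99AHG, MIR181A1HG, SNHG10 and SNHG19, and 10 of them exceeded the controls on each of the 5 arrays. MIR17HG, the host of the proliferation-linked cluster of miR-17 and miR-92a, had mean log2 values of 1.99 for MCF10.AT1 and 1.79 for MCF10.AT1-R, and MIR22HG, a stress-responsive host, had 2.48 and 2.16, both within the negative controls. The hosts MIR31HG, MIR100HG and MIR200CHG and the snoRNA hosts SNHG1 to SNHG9, SNHG11 and SNHG12 have no symbol of their own in the annotation used and were not analysed here.

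**Figure D1:**
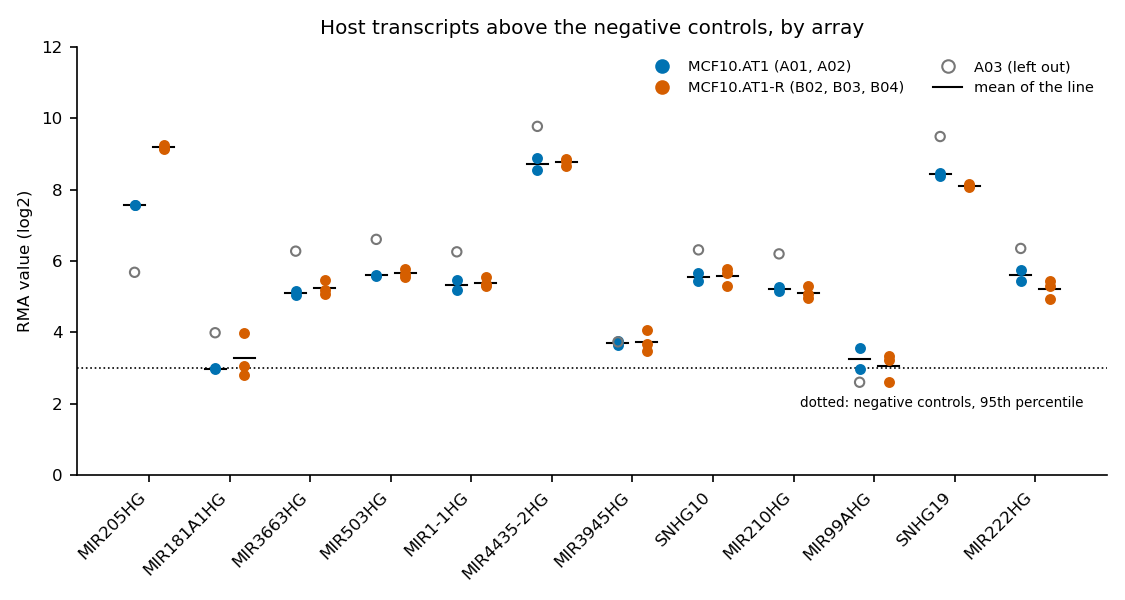
Log2 RMA values (vertical axis) of the 12 host transcripts above the negative controls, with each array a point, the mean of each line a bar, A03 an open circle and the 95th percentile of the negative controls a dotted line. MIR205HG lies above 9 on the 3 MCF10.AT1-R arrays and below 8 on both MCF10.AT1 arrays, whereas for SNHG19 and MIR222HG the MCF10.AT1-R arrays lie slightly below.

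Of the 15 hosts tested, 6 of them above the negative controls, a single host was called different between the lines. This was MIR205HG, the host of miR-205 and itself a nuclear regulatory RNA of basal epithelial cells. Its log2 value was 7.56 and 7.57 on the MCF10.AT1 arrays A01 and A02 and 9.16, 9.15 and 9.25 on the MCF10.AT1-R arrays B02, B03 and B04. All 3 MCF10.AT1-R arrays were thus far above both MCF10.AT1 arrays, and the arrays of each line lay close together, with means of 7.57 ± 0.0064 (SD, n = 2) and 9.19 ± 0.0559 (SD, n = 3). The difference was 1.62 on the log2 scale (SE 0.31), which is 3.07-fold, with an adjusted p of 5.73e-05 by limma with Benjamini-Hochberg adjustment over all 51457 probe sets tested. The SE rests on the single variance that limma estimated for all tested probe sets, not on the spread of MIR205HG itself. With 1 array left out in turn the difference stayed between 1.59 and 1.64, with adjusted p from 0.000161 to 0.0194 by limma. A03, the array left out by the study, read 5.68, and with it counted among the MCF10.AT1 arrays the difference was 2.25 with an adjusted p of 0.777 by limma. No probe set was matched to MIR205, so the microRNA of this host was not analysed here.

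The promoter of MIR205HG is printed because it is the promoter of the host that rose, from 250 bases before to 50 bases after its RefSeq start (chr1:209428570-209428869, plus strand, GRCh38.p14), with capitals from the start on.
MIR205HG promoter: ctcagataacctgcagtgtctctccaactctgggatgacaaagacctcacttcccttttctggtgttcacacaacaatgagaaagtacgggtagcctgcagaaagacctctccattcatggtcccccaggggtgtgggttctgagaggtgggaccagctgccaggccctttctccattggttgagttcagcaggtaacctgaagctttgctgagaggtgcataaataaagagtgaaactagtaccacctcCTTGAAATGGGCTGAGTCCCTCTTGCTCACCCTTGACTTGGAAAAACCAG
Motifs for a TATA box, an AP-1 site, an E-box and a sterol regulatory element were searched on both strands, and this window holds a match to none of them, which says only that these letters are not in it. Windows were found for 28 of the 39 hosts, 37 windows in all, so some hosts had more than 1. A count of hosts is therefore not the same measure as a share of windows. The TATA box, searched as TATAAA, was present for 6 hosts, among them SNHG19 and MIR99AHG, and in 11.5% of all 35116 RefSeq promoter windows of the same length. The AP-1 site, searched as TGANTCA, was present for MIR155HG, MIR181A1HG and MIR4435-2HG, and in 7.71% of all windows. The E-box, searched as CACGTG, was present for 0 hosts and in 7.26% of all windows. The sterol regulatory element, searched as TCACNCCAC, was present for 0 hosts and in 1.13% of all windows.

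Markers of breast epithelium moved in the same direction as MIR205HG. All 7 markers were higher on every MCF10.AT1-R array than on both MCF10.AT1 arrays, and 5 of them rose by limma with Benjamini-Hochberg adjustment (7 with its trend option, which lets the variance depend on the level). Over all symbols above the negative controls 16.3% were higher without overlap, and over all tested probe sets 0.758% were called higher, and 1.69% with that option. KRT14, a basal keratin, differed by 2.37 on the log2 scale (limma adjusted p 2.36e-11), TP63, the basal transcription factor, by 1.74 (8.14e-06), KRT5, the partner keratin of KRT14, by 1.71 (1.35e-05), CDH1, E-cadherin, by 1.30 (0.0048) and KRT8, a luminal keratin, by 1.11 (0.0358). KRT18 and EPCAM differed by 0.85 and 0.78 without passing the test (limma adjusted p 0.244 and 0.341). The mean log2 value over the 7 markers was 7.36 and 7.26 on A01 and A02 and 8.69, 8.66 and 8.80 on B02, B03 and B04, with the brightest probe set that of KRT18 and none at background, and both lines thus carry the markers of the labelled tissue.

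Of the 4 markers of other cells, 2 fell (VIM and PECAM1), 1 overlapped between the lines (COL1A1) and 1 was at background (PTPRC), where 0.447% of all tested probe sets were called lower. VIM, an intermediate filament of mesenchymal and basal cells, was 7.43 and 7.53 on A01 and A02 and 5.69, 5.57 and 6.25 on B02, B03 and B04, and fell by 1.64 on the log2 scale (limma adjusted p 3.95e-05). PECAM1, an endothelial adhesion molecule, fell by 1.12 (limma adjusted p 0.0307), to a mean of 3.17 in MCF10.AT1-R, close to the negative controls. The leukocyte marker PTPRC did not exceed the negative controls. COL1A1, a fibroblast collagen, read on the brighter of its 2 unlike probe sets, differed by 0.15 with overlapping arrays. Over these 4 markers the mean log2 value was 4.90 and 5.36 on A01 and A02 and 4.40, 4.45 and 4.71 on the MCF10.AT1-R arrays. ZEB1 and ZEB2, added to the lists after their values were seen, were both lower on all 3 MCF10.AT1-R arrays. ZEB1 fell by 1.69 (limma adjusted p 1.9e-05), to a mean of 2.93 in MCF10.AT1-R. This mean is within the negative controls, so the size of the fall cannot be read exactly. ZEB2 differed by -0.75 (limma adjusted p 0.387). The part of these markers in the difference of MIR205HG was not tested, and in bulk RNA fewer cells of a type and less RNA per cell cannot be told apart.

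**Figure D2:**
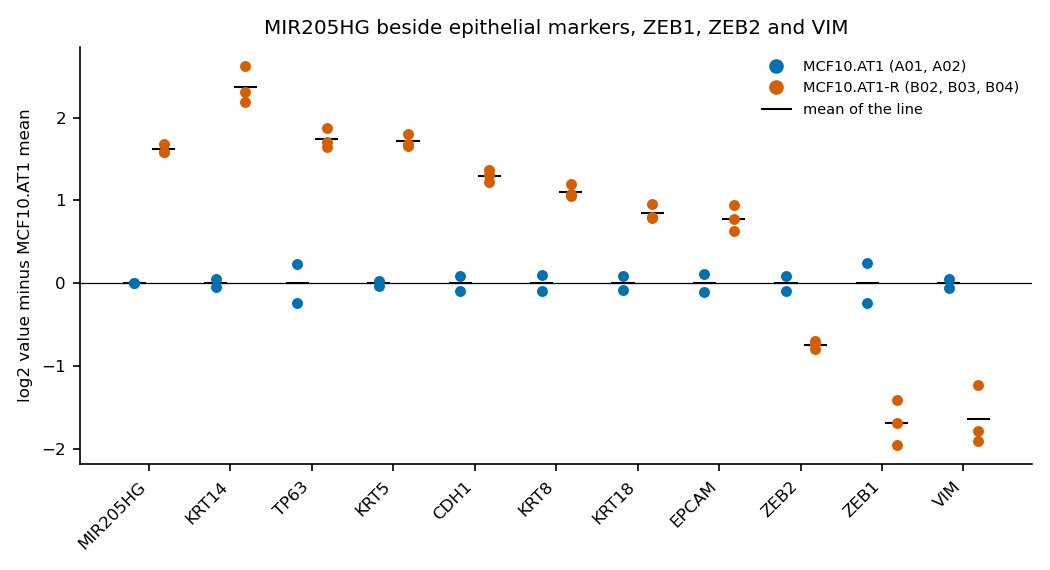
Log2 value minus the mean of the 2 MCF10.AT1 arrays (vertical axis) for MIR205HG, the 7 breast epithelial markers, ZEB2, ZEB1 and VIM, with each of the 5 arrays a point and the mean of each line a bar. MIR205HG and all 7 epithelial markers lie above 0 on the 3 MCF10.AT1-R arrays, and ZEB2, ZEB1 and VIM lie below 0.

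Across all 39 hosts, of which 27 lay within the negative controls, the differences went both ways. Their median was 0.02 on the log2 scale, beside 0.005 over all symbols and 0.0019 over the 2808 symbols that RefSeq lists as long noncoding RNA, with 20 hosts above and 19 below 0. Of the hosts, 15 passed the filter on low and invariant values and were tested, and 1 of them was higher and 0 were lower at a false discovery rate of 5% by limma. Only 6 of these 15 were above the negative controls, since the filter's cut of 1.88 lies below the control level of 2.99. SNHG19, MIR4435-2HG, MIR503HG, MIR1-1HG, MIR3663HG and MIR210HG were above the controls but varied too little to be tested. Of all tested probe sets 0.758% were called higher and 0.447% lower. Among those not tested, 15 hosts were too low and 9 varied too little, and the counts were again 1 higher and 0 lower with limma's trend option, by which 1.69% of all tested probe sets were called higher and 0.981% lower. At an unadjusted p below 0.05 they were also 1 and 0, where 3.98% of all tested probe sets were higher and 4.27% lower.

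Without a test, 2 hosts were higher on every MCF10.AT1-R array than on both MCF10.AT1 arrays (MIR205HG and MIR4300HG), 5 were lower on every one (SNHG19, MIR222HG, MIR9-3HG, MIR924HG and SNHG23) and 32 overlapped. Over all symbols of the array, 24.7% did not overlap in either direction. Above the negative controls the counts were 1 higher and 2 lower of 12, where 16.3% of symbols above the controls were higher and 15.3% lower in this way. The shares of the hosts are thus near or below those of the table.

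**Figure D3:**
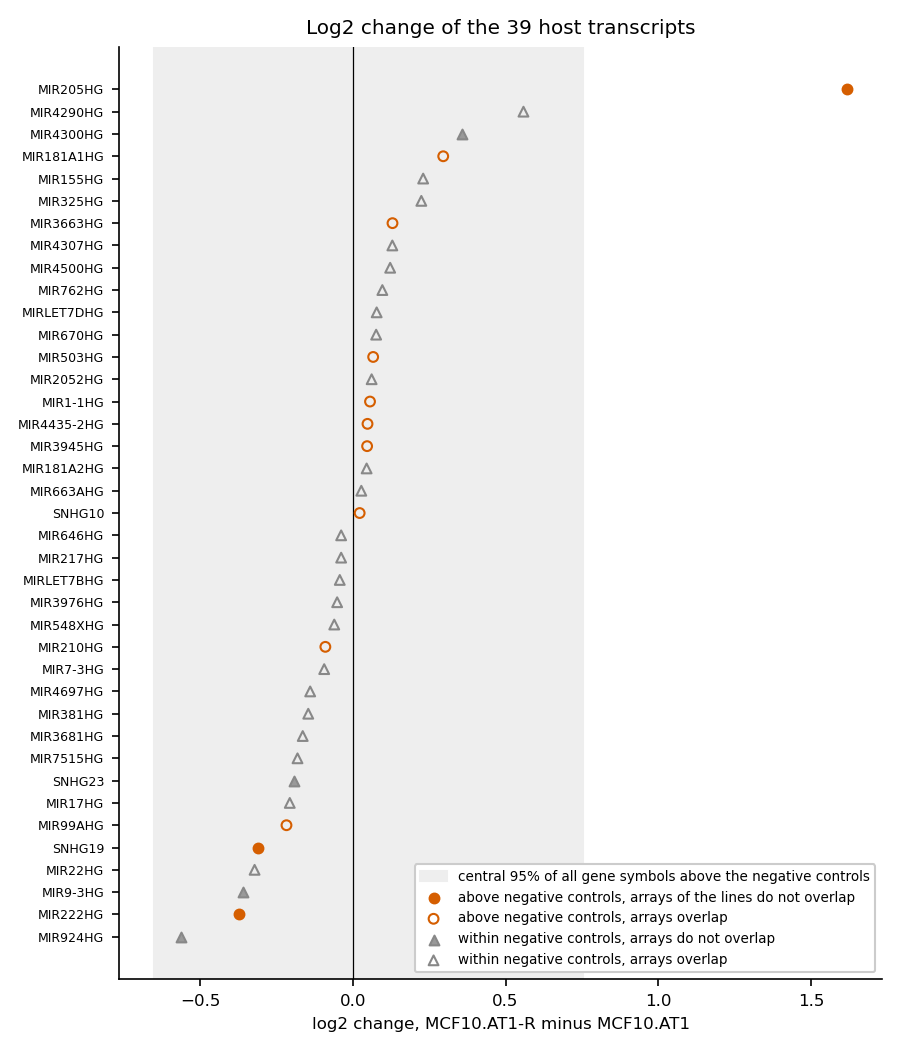
Log2 change, MCF10.AT1-R minus MCF10.AT1 (horizontal axis), of the 39 host transcripts in order of change, with circles for the 12 above the negative controls, triangles for the 27 within them, filled symbols where the arrays of the lines do not overlap, and a grey band for the central 95% of all symbols above the controls. MIR205HG at 1.62 lies beyond the band, which runs from -0.65 to 0.75, and the other hosts lie inside it.

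SNHG19, the host of the C/D box snoRNA SNORD60, was a little lower in MCF10.AT1-R. Its log2 value was 8.46 and 8.39 on A01 and A02 and 8.11, 8.16 and 8.08 on B02, B03 and B04. The arrays did not overlap and those of each line were close together, with a difference of -0.31 on the log2 scale, but the probe set was removed as invariant and was not tested. Without the filter on invariant probe sets it did not pass (limma adjusted p 0.661, 0.171 with the trend option, and 0.811 without any filter). SNORD60, which guides methylation of ribosomal RNA, read 5.15 and 5.51 on A01 and A02 and 4.56, 4.39 and 4.64 on B02, B03 and B04. It too was lower on all 3 MCF10.AT1-R arrays, by -0.80 on the log2 scale (SE 0.31), and did not pass the test (limma adjusted p 0.303). SNORD60 is represented by 3 probe sets, and that with the highest mean on the chromosome of SNHG19 was used.

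MIR222HG, the host of miR-221 and miR-222, read 5.74 and 5.45 on A01 and A02 and 5.30, 4.93 and 5.44 on B02, B03 and B04. The lowest MCF10.AT1 array lay just above the highest MCF10.AT1-R array, and the difference of -0.37 (SE 0.31) did not pass the test (limma adjusted p 0.824). It was -0.23 without A01 or without B03. The probe set of MIR222 read 4.83 and 4.44 on A01 and A02 and 4.10, 3.68 and 3.69 on B02, B03 and B04, lower on every MCF10.AT1-R array. Its difference of -0.81 (SE 0.31) did not pass either (limma adjusted p 0.291). MIR221, which shares the host, read 6.84 and 6.62 on A01 and A02 and 6.73, 6.46 and 6.58 on B02, B03 and B04, so that its arrays overlapped with a difference of -0.14, which was -0.03 without A01 and -0.25 without A02, and the arrays no longer overlapped without A02 or without B02. CDKN1B, chosen after its values were seen, differed by -0.78 and did not pass (limma adjusted p 0.344), although it did with limma's trend option (limma adjusted p 0.0341). It read 6.34 and 6.06 on A01 and A02 and 5.86, 4.80 and 5.61 on B02, B03 and B04. B03 thus stood apart from the other MCF10.AT1-R arrays, and the size of the difference depends on it. KIT, another gene described with these microRNAs, was within the negative controls.

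**Figure D4:**
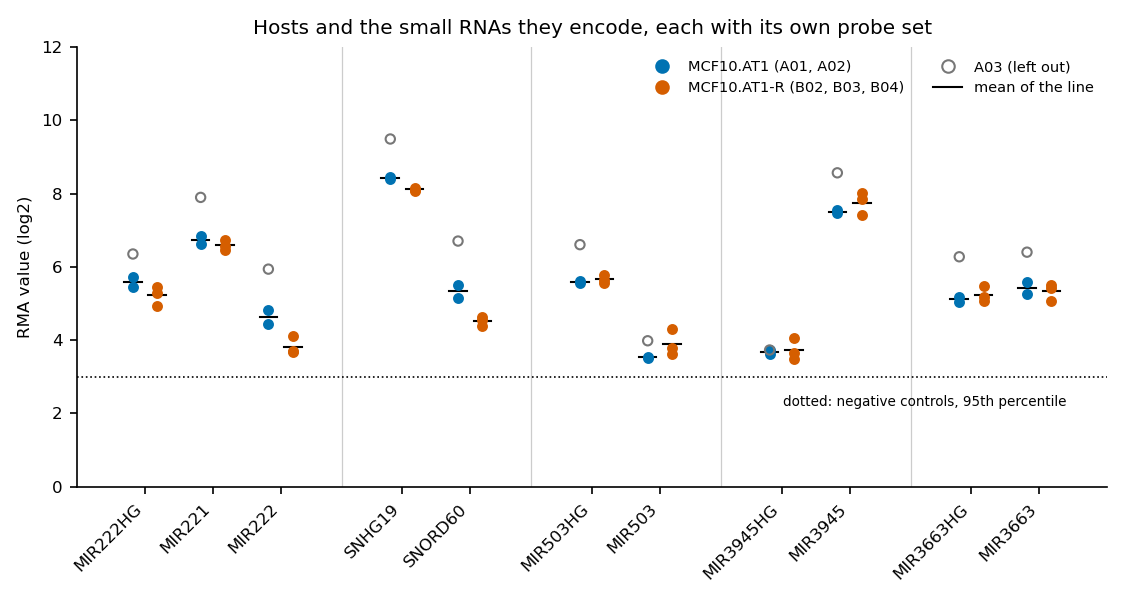
Log2 RMA values (vertical axis) of 5 hosts beside the small RNAs they encode, each with its own probe set, with arrays as points, the mean of each line as a bar, A03 as an open circle and the 95th percentile of the negative controls as a dotted line. MIR222 and SNORD60 lie lower and MIR503 higher on all 3 MCF10.AT1-R arrays, whereas MIR221, MIR3945 and MIR3663 overlap between the lines.

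The other hosts above the negative controls differed by less than the spread of the arrays, with overlapping values in all 9 of them and differences from -0.22 to 0.30. MIR4435-2HG, known for a role in myeloid cell survival, read 8.89 and 8.56 on A01 and A02 and 8.86, 8.67 and 8.79 on B02, B03 and B04. The arrays of the lines were interleaved, and the difference was 0.05. MIR503HG, the host of miR-503, differed by 0.07, SNHG10 by 0.02 (limma adjusted p 0.988), MIR1-1HG, the host of the muscle microRNA miR-1, by 0.06, MIR3663HG by 0.13 and MIR210HG, the host of the hypoxia-induced miR-210, by -0.09. MIR181A1HG and MIR99AHG lay near background, exceeding the negative controls on 2 and 3 of the 5 arrays. In MIR181A1HG 1 of the MCF10.AT1-R arrays, B04, stood apart at 3.97 from 3.06 on B02 and 2.80 on B03. Its difference of 0.30 turned to -0.05 without B04. For MIR99AHG the difference of -0.22 turned to 0.07 without A01 and to 0.0063 without B04, and was -0.50 without A02. For MIR3945HG the difference of 0.05 turned to -0.0091 without A02 and to -0.12 without B02.

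RefSeq places 59 small RNA genes, without regard to strand, within the span of 33 of the 35 hosts it lists, and 42 of these small RNAs, from 27 hosts, had a probe set on the chromosome of the host, as the probe set identifier gives it. Of them 9 were above the negative controls, and of 11 tested 0 passed by limma with or without its trend option, where 0.758% and 0.447% of all tested probe sets were called higher and lower. At an unadjusted p below 0.05, 2 were lower (MIR222 and SNORD60) and 0 higher, where 4.27% and 3.98% of all tested probe sets were. Among the 9, MIR503 was higher on all MCF10.AT1-R arrays and MIR222 and SNORD60 were lower on all of them, and the other 6 overlapped, where 16.3% of symbols above the controls were higher and 15.3% lower in this way. MIR503 read 3.55 and 3.51 on A01 and A02 and 4.29, 3.63 and 3.77 on B02, B03 and B04. Its difference was 0.37 (limma adjusted p 0.825), and its size depends on B02, which lay well above the other MCF10.AT1-R arrays. MIR3945 and MIR3663 differed by 0.24 and -0.08, with overlapping arrays.

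The machinery that processes these RNAs was measured beside them. Of 28 genes of the box C/D and H/ACA snoRNP cores, microRNA processing and nonsense-mediated decay, 10 were tested and 0 were called in either direction by limma, with or without limma's trend option (0 also at an unadjusted p below 0.05), where 0.758% of all tested probe sets were called higher and 0.447% lower, and 3.98% and 4.27% at the unadjusted threshold, with a median difference of -0.05. The other 18 genes were not tested. Of the 27 genes above the negative controls, 3 were higher and 4 lower without overlap, beside 16.3% and 15.3% of all symbols above the controls. FBL, the methyltransferase of C/D snoRNPs, differed by -0.06 and DROSHA and DICER1, the nucleases of microRNA maturation, by 0.27 and 0.44. DROSHA was higher on all 3 MCF10.AT1-R arrays but was removed as invariant and not tested. DICER1 read 6.25 on A01, 5.56 on A02 and 6.41, 6.22 and 6.39 on B02, B03 and B04. Its arrays thus overlapped (limma adjusted p 0.79), and only A02 lay below all MCF10.AT1-R arrays. Of 33 hosts that bear other names, 11 were tested and 0 were called by limma (2 higher and 1 lower at an unadjusted p below 0.05, where 3.98% and 4.27% of all tested probe sets were), with a median difference of -0.03. GAS5 and DANCR, both snoRNA hosts, differed by -0.17 and -0.33. SREBF2 and SREBF1, which carry miR-33a and miR-33b in their introns and encode regulators of sterol and lipid synthesis, differed by 0.13 and -0.27. CTDSPL and PANK3, hosts of miR-26a and miR-103, both differed by 0.68 and did not pass (limma adjusted p 0.49), while with limma's trend option, by which 1.69% of all tested probe sets were called higher, both were called (limma adjusted p 0.0183 and 0.0212). CTDSP1, the host of miR-26b, and H19, the host of miR-675, were lower on all 3 MCF10.AT1-R arrays, by -0.66 and -0.60, and passed neither without that option (limma adjusted p 0.531 and 0.62) nor with it (0.0635 and 0.499 by limma).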

How the data were processed

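Gene expression was measured with Clariom D arrays on 3 samples of each line. The authors background-corrected, normalized and summarised the arrays by RMA with affy and oligo, and the deposited values are log2 intensities per probe set (135750 transcript probe sets and 2995 controls). All 6 columns were used. Columns named A were read as MCF10.AT1 and those named B as MCF10.AT1-R. The columns carry no line names, and the paper's text names A03 as removed without giving its line. This reading is therefore an assumption. Gene names are those of the deposited table; no genome build is named, and RefSeq tables (GRCh38.p14) gave biotypes, hosted small RNAs and sequences. The probe set with the highest mean over the 5 arrays was used per symbol (3 hosts had 2), and for an encoded small RNA the one on the chromosome of its host. limma 3.58.1 in R 4.3.3 (lmFit, eBayes, 2-sided) was run over probe sets with a mean above the median (1.88) and an SD above the lowest 25% (0.176), with Benjamini-Hochberg adjustment over all 51457 and a false discovery rate of 5%, after tests on simulated data. The number of arrays limits the precision. The standard error was 0.31 for every tested probe set, since limma estimated a single variance (SD 0.341). Hosts named with values were those past the threshold, the 8 with the highest mean, those above the negative controls whose arrays did not overlap, and a list of well-known hosts; the others above the controls, MIR181A1HG, MIR3945HG and MIR99AHG, and the named genes that did not pass, were chosen after their values were seen. The members and lists were chosen with earlier results of these data known. A03 was used only where stated.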

Additional observations from a re-analysis of the deposited data

Results flagged for a closer look

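A03, read here as an MCF10.AT1 array and not used in the comparison, held a signal outside it. Over the 12 host transcripts above the negative controls its value minus the mean of A01 and A02 had a median of 0.96 on the log2 scale, higher than both other MCF10.AT1 arrays in 9 hosts and lower in 2, MIR205HG (-1.89) and MIR99AHG (-0.66). MIR4435-2HG read 9.77 on A03, SNHG19 9.49 and MIR222HG 6.35. Among symbols with a mean log2 value above 5, the same difference had a median of -3.55 over 6528 protein-coding genes, of 0.95 over 129 long noncoding RNAs, of 1.02 over 159 microRNAs and of 0.91 over 41 snoRNAs. Of the protein-coding genes 1.99% were above both other arrays, against 99.4% of the microRNAs. The mean over the 7 epithelial markers was 3.89 on A03. With 1 array the cause was not tested.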

How the results depend on the processing

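MIR205HG was called in 13 of 14 alternatives, and lost the call with A03 added back (2.25, adjusted p 0.777 by limma, and 0 hosts past the threshold). The number of probe sets past the threshold, 620, was 26 with A03 added back, 1377 with limma's trend option, 182 with the low-expression filter alone, 177 without a filter, 177 with values raised to the negative controls and 1086 with the low-expression filter and that option together, an alternative chosen after seeing the data. With 1 array left out in turn it ranged from 271 (without A02) to 595, with 314 without A01, and leaving out A01 or A02 leaves a lone MCF10.AT1 array assumed to vary like the others. The median change of the hosts was -0.13 with A03 added back and ranged from -0.033 to 0.075 with 1 array left out. Hosts without overlap were 3 with values raised to the negative controls, and from 9 to 19 with 1 array left out (17 without A01, 19 without A02, 16 without B03), fewer arrays making overlap less frequent. With A03 added back the change reversed in 13 of the 39 hosts (7 of them above the negative controls), among them MIR4300HG and MIR181A1HG and, of the 11 followed through all alternatives, MIR1-1HG (-0.25), MIR3663HG (-0.26), MIR4435-2HG (-0.30), MIR503HG (-0.27) and SNHG10 (-0.23). Leaving out A01, A02, B02, B03 or B04 reversed the change in 11, 10, 6, 2 and 8 of the 39 hosts, in that order. With 1 array left out the change ranged from -0.083 to 0.20 for MIR1-1HG and from -0.60 to 0.19 for MIR17HG. It ranged from -0.12 to 0.22 for MIR4435-2HG and from -0.089 to 0.16 for SNHG10. For MIR3663HG it ranged from 0.014 to 0.21 and for MIR503HG from 0.0034 to 0.12. MIR17HG and SNHG10 were not called by limma where they were tested, and MIR1-1HG and MIR4435-2HG did not pass the filter in these fits. The changes of MIR210HG, MIR222HG, MIR22HG and SNHG19 kept their direction or were 0 in all 14 alternatives, while their size with 1 array left out ranged from -0.52 to -0.23 for MIR222HG (-0.23 without A01 or B03), from -0.18 to -0.0094 for MIR210HG, from -0.59 to -0.057 for MIR22HG and from -0.34 to -0.27 for SNHG19. Apart from the fewer arrays or tested probe sets of an alternative, the cause was not tested. No paired analysis was possible because the columns carry no replicate numbers of the labels. Values within the negative controls, as in 27 hosts, limit what can be read from their differences.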

Other observations

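Of 20 snoRNA host genes (SNHG with a number) that lack a symbol of their own in the annotation used, 15 were represented by 21 small RNAs from a list of known products, each with a probe set on the chromosome of its host. Another 11 listed products had probe sets on other chromosomes only and were left out. Of the 21, 17 were above the negative controls, and of 10 tested 0 were called in either direction by limma (0 also at an unadjusted p below 0.05, and 0 higher and 1 lower with limma's trend option), where 0.758% of all tested probe sets were called higher and 0.447% lower, 3.98% and 4.27% at the unadjusted threshold, and 1.69% and 0.981% with that option. Above the negative controls 7 were lower and 1 was higher on every MCF10.AT1-R array than on both MCF10.AT1 arrays, with a median difference of -0.22 on the log2 scale, and the others overlapped. Over all 91 snoRNA symbols of RefSeq above the negative controls, wherever their probe sets lie, 34 were lower and 6 higher in this way, beside 15.3% and 16.3% of all symbols above the controls.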
